A study of Homo sapiens with 12 samples.

Results

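The genes described here are 10 genes that act when DNA replication starts and when new DNA is packed into chromatin: ATAD2, CDC6, CDC7, CDC45, CDT1, CHAF1A, CHAF1B, DBF4, DSCC1 and DTL. They were picked by symbol, from a set drawn up with earlier results of these data known, and all 10 were present among the 4918 genes of the expression table. That table does not cover the genome, since RefSeq gives promoters for 27305 genes. Shares of all genes below refer to the table. RNA-seq was performed on A375, an established human melanoma cell line, in 4 groups of 3 samples. The groups were control cells, cells given SB-3CT, an inhibitor of the gelatinases MMP2 and MMP9, cells given IFNγ, the interferon that T cells release, and cells given both (SB-3CT+IFNγ), and the labels give 24 h of treatment and no dose. The control samples are labelled as given no treatment, while the treatment protocol names a vehicle, so control cells may have received vehicle. The labels do not say whether the samples of a group were separate cultures, so p-values measure the spread between these samples, which may be technical. The comparisons ask how SB-3CT changes expression with and without IFNγ.

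Replication origins are first loaded with the MCM helicase, which needs CDC6 and CDT1. The loaded helicase is switched on later, by the kinase CDC7 with its activating partner DBF4 and by the arrival of CDC45, which travels with the helicase. Once origins have fired, the ubiquitin ligase adaptor DTL directs CDT1 to destruction, the chromatin assembly factor CAF-1 (CHAF1A and CHAF1B) places histones on the new strands, and DSCC1 belongs to an alternative clamp loader that serves sister chromatid cohesion. ATAD2 is a bromodomain ATPase that binds acetylated histones on newly made chromatin. Transcription of many such genes is known to be driven by E2F factors as cells enter S phase, so that their mRNA is often read as a sign of proliferation.

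Since E2F factors are known to regulate genes of this kind and several members moved together below, the bases just before their starts were read from RefSeq (GRCh38.p14), which held an entry for 8 of the 10 genes and 11 starts. The 250 bases before each start were searched on both strands for 8 words of the E2F type, TTTCCCGC, TTTCCCGG, TTTCGCGC, TTTCGCGG, TTTGCCGC, TTTGCCGG, TTTGGCGC and TTTGGCGG. A word was found at 5 of the 11 starts (45.5%), in 5 of the 8 genes, against 5.23% of all 35116 promoters and 7.62% of the promoters of expressed genes, here and below those whose FPKM averaged 1 or more over the 12 samples. The 80 bases before the start are shown for the 5 starts with a word, with the word in capitals, and for DBF4 as a member without one; they run 5′ to 3′ on the gene's own strand, which is the plus strand in each case.
CDC6 (chr17:40287799-40287878): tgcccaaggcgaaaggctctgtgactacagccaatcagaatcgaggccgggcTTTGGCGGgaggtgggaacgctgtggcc
CDT1 (chr16:88803709-88803788): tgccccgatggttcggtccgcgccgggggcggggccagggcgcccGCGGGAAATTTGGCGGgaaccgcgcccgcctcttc
CDC7 (chr1:91501032-91501111): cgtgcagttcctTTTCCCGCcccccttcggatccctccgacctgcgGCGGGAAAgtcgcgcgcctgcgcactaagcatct
CDC45 (chr22:19479840-19479919): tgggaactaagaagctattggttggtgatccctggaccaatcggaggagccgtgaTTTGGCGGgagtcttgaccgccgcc
DTL (chr1:212035668-212035747): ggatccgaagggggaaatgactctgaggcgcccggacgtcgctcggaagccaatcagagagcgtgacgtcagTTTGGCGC
DBF4 (chr7:87876413-87876492): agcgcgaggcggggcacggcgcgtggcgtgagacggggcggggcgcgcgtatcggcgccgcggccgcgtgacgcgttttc
In CDT1 and CDC7 the word TTTCCCGC lay on the opposite strand and appears here as its reverse complement, the run GCGGGAAA. CDC7 held a second copy on its own strand. In CDT1 that word and TTTGGCGG stood side by side, between 35 and 20 bases before the start. The CDC7 and CDC45 entries held other starts without a word, and CHAF1A and CHAF1B held none. A matching word is a description of these letters and shows no binding.

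In the hg19 annotation, CDC7 (chromosome 1, 91966408 to 91991321) and DTL (chromosome 1, 212208895 to 212280742) share a chromosome, as do DSCC1 (chromosome 8, 120846216 to 120868134) and ATAD2 (chromosome 8, 124332090 to 124428590). The other members lie apart, DBF4 on chromosome 7 (87505531 to 87538868), CDT1 on 16 (88870197 to 88875666), CDC6 on 17 (38444131 to 38460909), CHAF1A on 19 (4402637 to 4445015), CHAF1B on 21 (37757690 to 37791313) and CDC45 on 22 (19466980 to 19508135). FPKM covers the exons of each gene as a whole. Exon bases shared with another annotated gene made up 6.1% in ATAD2 (IMPDH1P6) and 3.16% in DBF4 (SLC25A40), and at most 2.33% in the others.

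The values are FPKM, in which fragments are divided by transcript length and library size, so levels can be set side by side between genes. Changes are given as log2 changes of FPKM + 1 and were called at a Benjamini-Hochberg adjusted p under 0.05 over all 4918 genes. The libraries matched their IFNγ labels: CXCL10, an interferon-induced chemokine, was at 78.7 to 86.2 FPKM with IFNγ and at 96.5 to 122 with both agents, and at no more than 0.05 in the others. Melanoma-associated CSPG4 (26.3 to 49.0 FPKM) and CD63 (596 to 728) were present in all 12 libraries, while the melanin gene DCT stayed under 1. Of 12 markers of other cell types in the table, 10 stayed under 1 FPKM, the exceptions being CLDN4 (7.4 to 11.5) and CD68 (19.8 to 31.6). The summed myeloid markers, nearly all CD68, were at 19.9 to 23.1 in control, 23.5 to 25.7 with SB-3CT, 26.7 to 32 with IFNγ and 27.9 to 30.1 with both, with CD14 and CSF1R under 1 throughout; their part in the results was not tested. The number of reads is not given in the sources used here. The smallest steps between low values put the depth of each library at 87.2% to 150% of the control mean. The 3 SB-3CT+IFNγ libraries stood apart in scaling: their median-ratio factors, which set the typical gene level in all samples, were 0.8654 to 0.8737, against 0.9873 to 1.09 in the other 9. The median change of the 3177 expressed genes was therefore -0.20 between SB-3CT+IFNγ and IFNγ and -0.21 between SB-3CT+IFNγ and SB-3CT, and values with that shift removed are given beside the deposited ones. In bulk RNA, fewer cells in S phase and less of these mRNAs per cell cannot be told apart.

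In control cells the members spanned a several-fold range. CDC6 was highest at 26.7 ± 0.957 FPKM (SD, n = 3), followed by CHAF1A at 18.6 ± 1.63 and CDC45 at 18.6 ± 0.188, which overlapped, and by DSCC1 at 16.6 ± 0.337 and CDT1 at 16.5 ± 1.4, which overlapped as well. DTL at 9.28 ± 0.945, ATAD2 at 7.64 ± 0.394, DBF4 at 6.73 ± 0.292 and CHAF1B at 6.08 ± 0.473 stood lower, with DBF4 and CHAF1B overlapping. CDC7 was the lowest at 3.76 ± 0.314 FPKM. The kinase subunits CDC7 and DBF4 were thus among the least abundant members and the loading factor CDC6 the most.

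**Figure D1:**
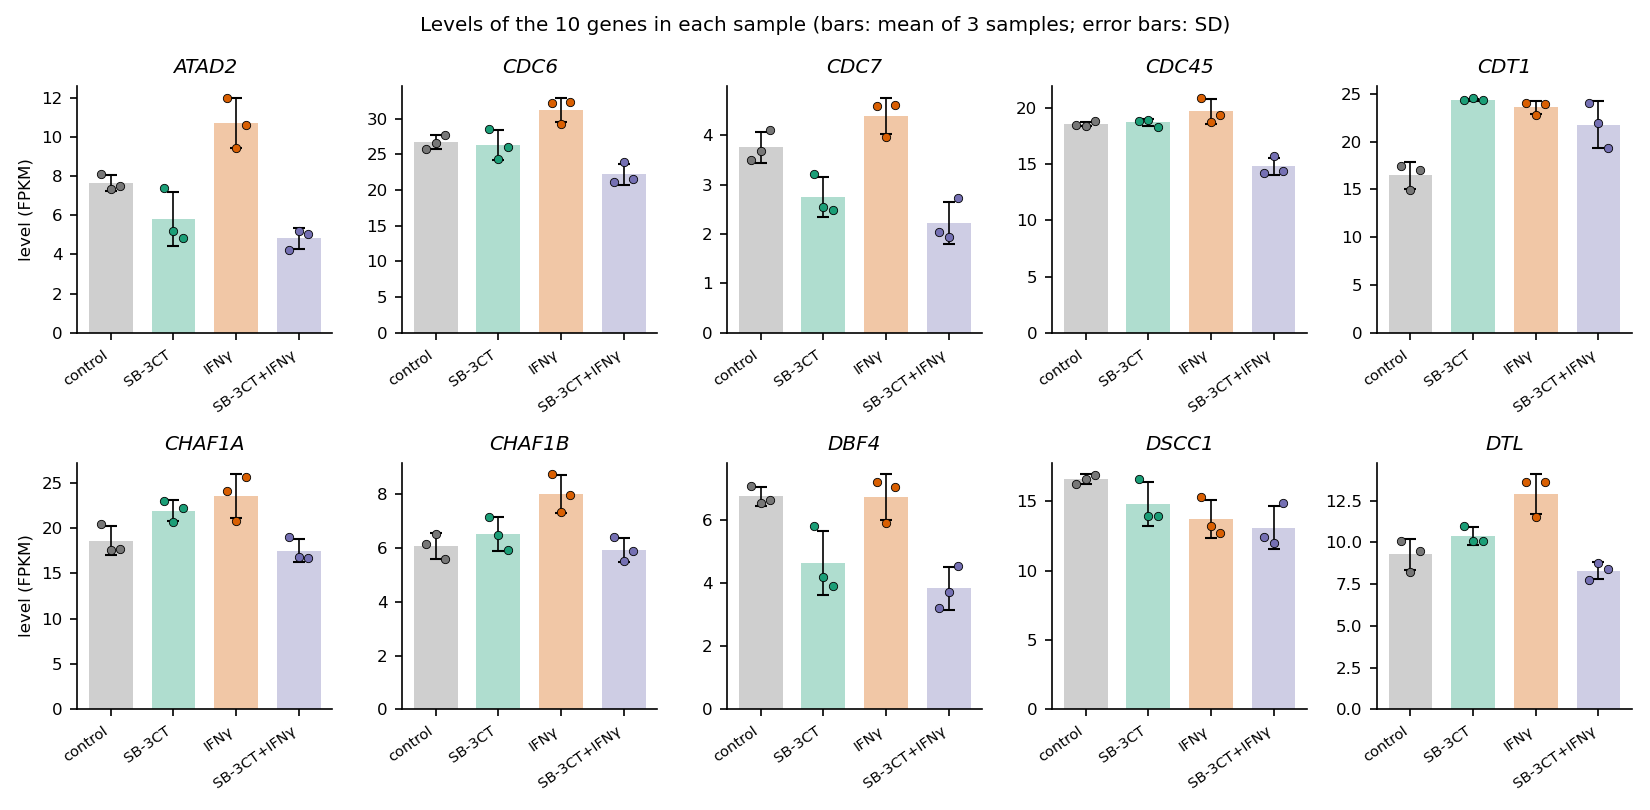
FPKM of each of the 10 genes (y axis, from 0, a scale of its own per panel) in the control, SB-3CT, IFNγ and SB-3CT+IFNγ groups; points are samples, bars the mean of 3 and error bars the SD. ATAD2 was highest with IFNγ alone (9.42 to 12) and lower with both agents (4.21 to 5.19), while CDT1 was lowest in control cells (14.9 to 17.5).

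SB-3CT given together with IFNγ lowered most of these genes relative to IFNγ alone. Of the 10 members, 8 were lower and none was higher by limma, at an unadjusted p under 0.05 as well, with ATAD2, CDC7 and DBF4 changed most and CDT1 and DSCC1 not called. Lower calls were frequent in this comparison, at 31.5% of all 4918 genes and 42.7% of the expressed genes. The median change was -0.44 over the members, -0.20 over the expressed genes and -0.09 over all genes. At a fold change over 1.5 with an unadjusted p under 0.05, 3 members were lower (ATAD2, CDC7 and DBF4), against 6.51% of all genes. In all 8 called members the 2 groups did not overlap, as in 39.6% of all genes. After median-ratio scaling 5 of the 10 remained lower, ATAD2, CDC6, CDC7, DBF4 and DTL, against 15.5% of all genes, and the changes of CDT1 and DSCC1 turned positive.

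IFNγ alone raised several members relative to control. ATAD2, CDC6, CDT1, CHAF1B and DTL were higher, 5 of 10 members against 8.46% of all genes and 11% of the expressed genes, and the 5 changes were positive under each rescaling. No member was called lower by limma, against 11% of all genes, with 1 (DSCC1) at an unadjusted p under 0.05. The median change was 0.27 over the members and -0.02 over all genes. The groups did not overlap for 6 higher members (15% of all genes) and for DSCC1, which was lower (22% of all genes). Most of these calls were fragile: without control replicate 2, control replicate 3 or IFNγ replicate 3 only CDT1 was called higher, and without control replicate 1 or IFNγ replicate 1 the count was 2. Without IFNγ replicate 1 DSCC1 was called lower (-0.33, adjusted p = 0.0107). Leaving out IFNγ replicate 2 gave 6 higher, and median-ratio scaling of all samples gave 7, against 12.1% of all genes. The IFNγ samples serve in both comparisons, so a high value in them raises the one change and lowers the other, and agreement between the comparisons is no result. The control, SB-3CT and SB-3CT+IFNγ samples are shared between other comparisons in the same way.

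SB-3CT alone changed few members. CDT1 was higher, 1 of 10 members against 5.37% of all genes, and none was called lower by limma against 6.87% of all genes, with ATAD2, CDC7 and DBF4 lower at an unadjusted p under 0.05. The groups did not overlap for CDT1 and CHAF1A, both higher (14.2% of all genes), and for CDC7 and DBF4, both lower (19.7% of all genes). One library weighed on this outcome, since 4 members were called lower without SB-3CT replicate 1: ATAD2 (-0.52, adjusted p = 0.014), CDC7 (-0.43, adjusted p = 0.0269), DBF4 (-0.61, adjusted p = 0.0106) and DSCC1 (-0.24, adjusted p = 0.0188). The depth of SB-3CT replicate 1 was 130% of the control mean, and its part in the result was not tested.

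Adding IFNγ to SB-3CT, the last pairwise comparison, gave 4 members lower (CDC6, CDC45, CHAF1A and DTL) against 32.7% of all genes. The groups did not overlap for 5 members, these and CDT1, against 41.9% of all genes. The median over the members, -0.22, lay beside that of the expressed genes, -0.21. After median-ratio scaling no member was called in either direction by limma (lowest adjusted p = 0.349), the changes ran from -0.07 (CDC45) to 0.11 (CHAF1B), and that of CDC6 turned from -0.23 (adjusted p = 0.0449) to 0.02.

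**Figure D2:**
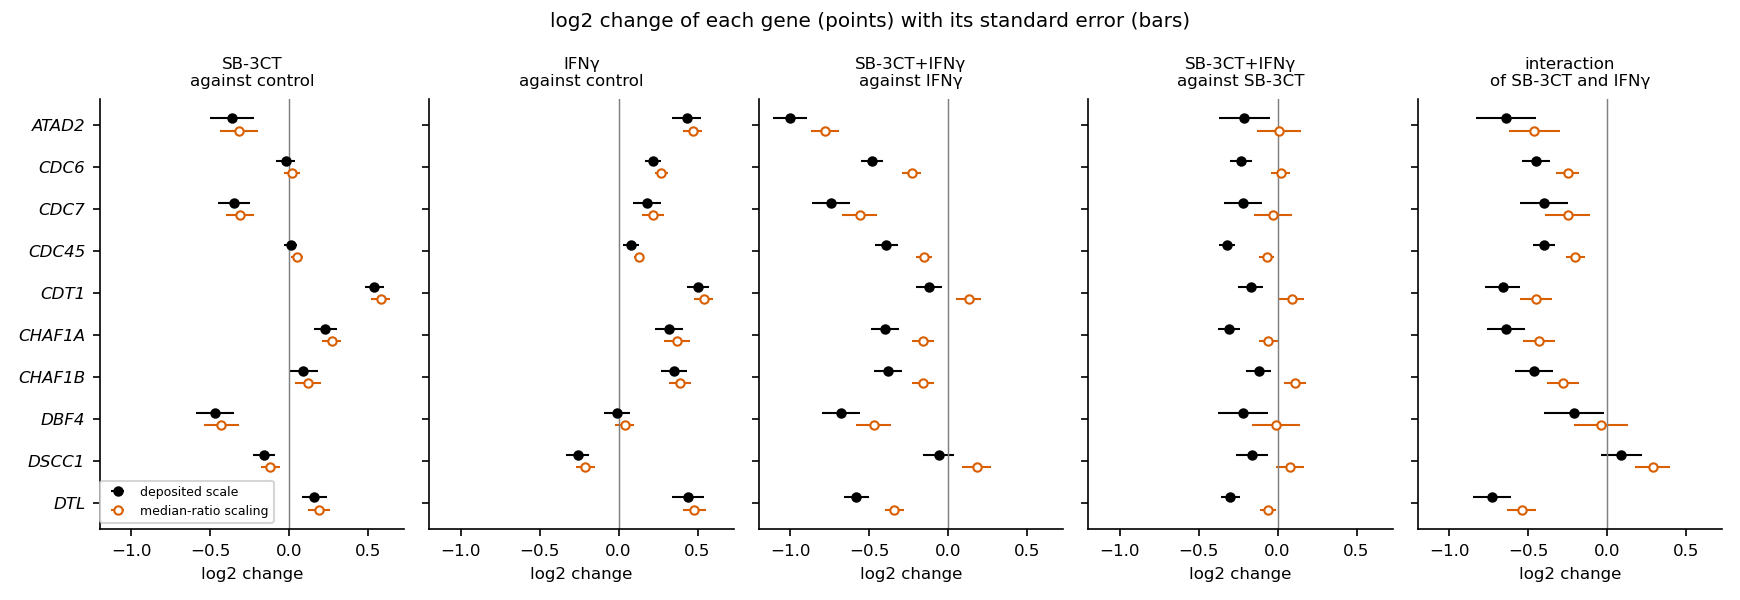
log2 change of each gene (x axis) in the 4 pairwise comparisons and the interaction, with SE bars, on the deposited scale (filled) and after median-ratio scaling (open). In SB-3CT+IFNγ against IFNγ the filled points run from -1.0 (ATAD2) to -0.06 (DSCC1), and after scaling the points of CDT1 (0.13) and DSCC1 (0.18) lie above 0.

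CDC6 and CDT1, which load the helicase, behaved differently. CDC6 was at 25.8, 26.6 and 27.7 FPKM in control replicates 1, 2 and 3, at 28.5, 24.4 and 26.0 with SB-3CT, at 32.2, 29.2 and 32.3 with IFNγ and at 21.1, 23.9 and 21.6 with both. All IFNγ samples were above, and all SB-3CT+IFNγ samples below, every sample of the other groups. CDC6 was higher with IFNγ than in control (0.22, SE 0.05, adjusted p = 0.0377) and lower with both agents than with IFNγ (-0.48, SE 0.07, adjusted p = 0.00283; -0.23, adjusted p = 0.0208, after median-ratio scaling). With the length trend removed the change against IFNγ was -0.13 and was not called (adjusted p = 0.114). SB-3CT alone gave a change of -0.02 (adjusted p = 0.839).

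CDT1 was at 17.5, 14.9 and 17.0 FPKM in control, at 24.4, 24.6 and 24.4 with SB-3CT, at 24.1, 22.8 and 23.9 with IFNγ and at 24.1, 22 and 19.3 with both. Each treatment thus lay above control without overlap, and the treatments lay close to each other. It was the member with the largest rise with SB-3CT alone (0.54, SE 0.06, adjusted p = 0.00596), where 99.5% of all genes had a lower change, and it rose with IFNγ alone (0.50, SE 0.07, adjusted p = 0.0048). Both calls stood without each sample in turn. With both agents against IFNγ the change was -0.12 (adjusted p = 0.322), so the 2 rises did not add up: the interaction was -0.66 (SE 0.11, adjusted p = 0.00528) and -0.45 (adjusted p = 0.0172) after median-ratio scaling.

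Both subunits of the helicase-activating kinase had their lowest mean in the samples given both agents. CDC7, the catalytic subunit, was at 3.49, 3.69 and 4.11 FPKM in control, at 3.21, 2.55 and 2.49 with SB-3CT, at 4.59, 3.97 and 4.62 with IFNγ and at 2.04, 1.94 and 2.72 with both. DBF4, the subunit that activates it, was at 7.06, 6.51 and 6.61 in control, at 5.79, 4.19 and 3.91 with SB-3CT, at 7.2, 5.88 and 7.04 with IFNγ and at 3.2, 3.72 and 4.54 with both. In both genes all SB-3CT samples lay below all control samples, SB-3CT replicate 1 nearest to them, and all samples with both agents lay below all IFNγ samples. CDC7 fell to an FPKM ratio of 0.509 with both agents against IFNγ (-0.74, SE 0.12, adjusted p = 0.00339) and DBF4 to 0.57 (-0.68, SE 0.12, adjusted p = 0.00545). Only 1.93% and 3.23% of all genes had a lower change.

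For this pair SB-3CT gave changes in the same direction without IFNγ, -0.35 for CDC7 (adjusted p = 0.0682) and -0.47 for DBF4 (adjusted p = 0.0523), short of the threshold. The interaction was not called for either, at -0.40 (SE 0.15, adjusted p = 0.0895) for CDC7 and -0.21 (SE 0.19, adjusted p = 0.458) for DBF4. IFNγ alone gave 0.18 (adjusted p = 0.206) and -0.01 (adjusted p = 0.972). The fall with both agents was kept after median-ratio scaling, at -0.56 (adjusted p = 0.01) for CDC7 and -0.47 (adjusted p = 0.0203) for DBF4, and in every fit that left out a sample.

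CDC45, a subunit of the active helicase, was even across 3 of the groups. It was at 18.5, 18.4 and 18.8 FPKM in control, at 18.8, 18.9 and 18.3 with SB-3CT and at 20.9, 18.7 and 19.4 with IFNγ, and these groups overlapped. With both agents it was at 14.2, 15.7 and 14.4, below every other sample. CDC45 fell against IFNγ (-0.39, SE 0.07, adjusted p = 0.00416) and against SB-3CT (-0.32, SE 0.05, adjusted p = 0.00372), and the interaction was -0.40 (SE 0.07, adjusted p = 0.00588). After median-ratio scaling the changes were -0.15 (adjusted p = 0.0584), -0.07 (adjusted p = 0.374) and -0.20 (adjusted p = 0.0534), so none of the 3 calls was kept. With the length trend removed all 3 were kept, at -0.31 (adjusted p = 0.0114), -0.23 (adjusted p = 0.0155) and -0.31 (adjusted p = 0.0137). Quantile normalization kept the fall against IFNγ (adjusted p = 0.0269) and the interaction (adjusted p = 0.0253), but not the fall against SB-3CT (adjusted p = 0.0765).

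DTL, the adaptor that marks CDT1 and the cell cycle inhibitor p21 for destruction, was at 10.1, 8.25 and 9.5 FPKM in control, at 11, 10.1 and 10.1 with SB-3CT, at 13.6, 11.5 and 13.6 with IFNγ and at 7.78, 8.76 and 8.41 with both. The IFNγ samples were the highest, and the samples with both agents lay below them and below those with SB-3CT. DTL rose with IFNγ (0.44, SE 0.10, adjusted p = 0.0241) and was lower with both agents than with IFNγ (-0.58, SE 0.08, adjusted p = 0.00291; -0.34, adjusted p = 0.00855, after median-ratio scaling). SB-3CT alone gave 0.16 (adjusted p = 0.245). Its interaction was the lowest of the 10 (-0.73, SE 0.12, adjusted p = 0.00497), and 0.691% of all genes had a lower one. DTL and its substrate CDT1 thus both had called interactions, while only DTL was called lower in SB-3CT+IFNγ against IFNγ; the difference between the 2 genes was not tested.

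The CAF-1 subunits were called lower with both agents than with IFNγ on the deposited scale, and not after median-ratio scaling, quantile normalization or removal of the length trend. CHAF1A, the large subunit, was at 20.4, 17.6 and 17.7 FPKM in control, at 23.0, 20.7 and 22.2 with SB-3CT, at 24.1, 20.8 and 25.6 with IFNγ and at 19.0, 16.8 and 16.7 with both. CHAF1B was at 6.14, 6.53 and 5.59 in control, at 7.17, 6.49 and 5.92 with SB-3CT, at 8.75, 7.33 and 7.96 with IFNγ and at 6.4, 5.52 and 5.88 with both. In either gene the samples with both agents overlapped control and lay below all IFNγ samples. The changes against IFNγ were close to each other, -0.40 for CHAF1A (SE 0.09, adjusted p = 0.0105) and -0.38 for CHAF1B (SE 0.09, adjusted p = 0.0131).

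Both of these calls were near the threshold. CHAF1A was called in 2 of the 6 fits that left out a sample (highest adjusted p = 0.0567) and CHAF1B in 3 of 6 (highest adjusted p = 0.0545). After median-ratio scaling each change was -0.16, with adjusted p-values of 0.143 and 0.129, and the groups of CHAF1B still did not overlap. With IFNγ alone CHAF1B rose by 0.35 (SE 0.08, adjusted p = 0.0352), and CHAF1A gave 0.32 (adjusted p = 0.0598). The interaction was -0.64 for CHAF1A (SE 0.12, adjusted p = 0.00653) and kept its call after scaling (-0.43, adjusted p = 0.0194), whereas that of CHAF1B (-0.46, SE 0.12, adjusted p = 0.0216) did not (-0.28, adjusted p = 0.11).

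ATAD2 had the largest change of the 10 in SB-3CT+IFNγ against IFNγ. It was at 8.09, 7.35 and 7.5 FPKM in control, at 7.41, 5.2 and 4.82 with SB-3CT, at 12, 9.42 and 10.6 with IFNγ and at 4.21, 5.19 and 5.07 with both. The IFNγ samples were the highest and did not overlap any other group, and the samples with both agents overlapped those with SB-3CT alone. ATAD2 rose with IFNγ (0.43, SE 0.09, adjusted p = 0.0222) and was lower with both agents than with IFNγ, at an FPKM ratio of 0.452 (-1.0, SE 0.11, adjusted p = 0.00207). Of all genes 0.102% had a lower change. The fall was kept after median-ratio scaling (-0.78, SE 0.09, adjusted p = 0.00247) and in all 6 fits that left out a sample (-1.08 to -0.92). Its interaction (-0.64, SE 0.19, adjusted p = 0.031) was called in 7 of 12 such fits and not after scaling (-0.46, adjusted p = 0.0835).

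DSCC1, of the cohesion clamp loader, had its highest mean in control and its lowest with both agents. It was at 16.2, 16.6 and 16.9 FPKM in control, at 16.6, 13.9 and 13.9 with SB-3CT, at 15.3, 13.2 and 12.7 with IFNγ and at 12.4, 12 and 14.9 with both. SB-3CT replicate 1 lay within control, and the samples with both agents overlapped those with IFNγ. With both agents against IFNγ the change was -0.06 (SE 0.10, adjusted p = 0.673). With IFNγ against control it was -0.26 (SE 0.07, adjusted p = 0.0565), with no overlap between the groups, and it was called lower after median-ratio scaling (-0.21, adjusted p = 0.0468). Its interaction was positive (0.09, SE 0.13, adjusted p = 0.66).

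The interaction asks whether the SB-3CT change with IFNγ differed from that without it. It was called lower for 7 of 10 members (ATAD2, CDC6, CDC45, CDT1, CHAF1A, CHAF1B and DTL) against 17.6% of all genes and 25.6% of the expressed genes. The 7 called values ran from -0.73 to -0.40, and the median was -0.46 over the members and -0.09 over all genes. After median-ratio scaling CDT1, CHAF1A and DTL were still called, 3 of 10 against 5.23% of all genes. The interaction was not called for CDC7, DBF4 and DSCC1. CDC7 had the same value as CDC45, -0.40, with a larger SE (0.15 against 0.07).

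**Figure D3:**
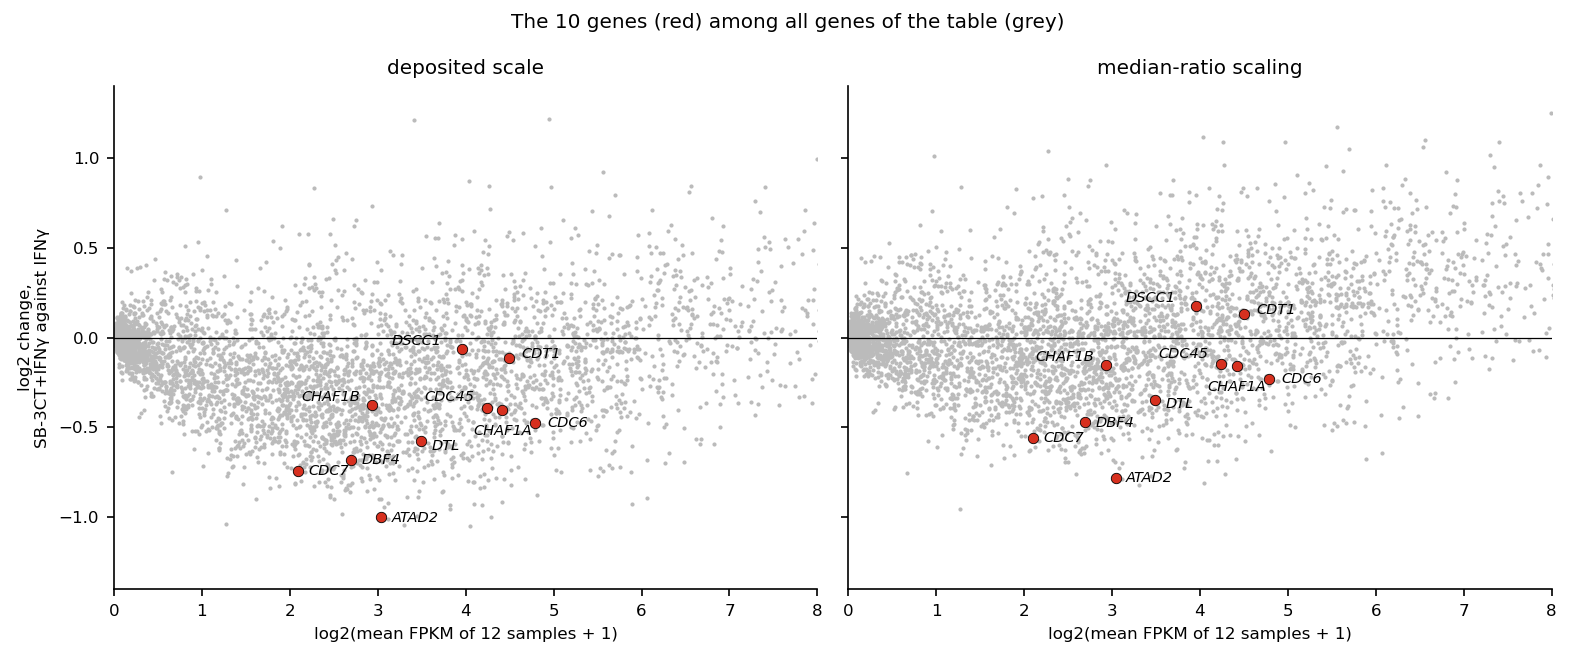
log2 change in SB-3CT+IFNγ against IFNγ (y axis) against log2(mean FPKM + 1) over 12 samples (x axis), for all genes (grey) and the 10 genes (red), on the deposited scale (left) and after median-ratio scaling (right); 90 genes outside the axes are not drawn. ATAD2 lies at the lower edge of the cloud on both scales (-1.0 and -0.78), whereas CDT1 and DSCC1 lie within it, below 0 on the left and above 0 on the right.

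Averaged over the 10 genes after centring each on its 12 samples, the log2 level was -0.02 to 0.05 in the control samples, -0.09 to 0.12 with SB-3CT, 0.13 to 0.33 with IFNγ and -0.28 to -0.20 with both. The samples with both agents were the lowest and those with IFNγ the highest. After median-ratio scaling the IFNγ samples were at 0.15 to 0.22 and stayed above all others, but those with both agents, at -0.10 to -0.01, overlapped control (-0.09 to -0.04) and SB-3CT (-0.12 to 0.02).

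The profile of CDC6 was nearest to this average, with a root mean square distance of 0.055 over the 12 samples, and those of CDT1 (0.275) and ATAD2 (0.24) were farthest. Among 3167 other expressed genes, the 8 nearest were FAF2 (0.05), CCDC93 (0.05), ARIH1 (0.058), B4GALT5 (0.058), DCAF10 (0.059), CEP89 (0.061), FAM222B (0.062) and DZIP1 (0.064). FAF2 was at 19.9, 18.4, 22.7 and 15.9 FPKM on average in control, SB-3CT, IFNγ and SB-3CT+IFNγ. None of the 8 is in the replication or chromatin lists used here.

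Other replication genes of the table were counted in the same comparison, SB-3CT+IFNγ against IFNγ, in which 31.5% of all genes were lower and 6.41% higher (15.5% and 16.5% after median-ratio scaling). Of 9 further genes of origin licensing and firing, 3 were lower and 1 was higher (CINP, a CDK2-binding protein), with a median of -0.08, and after median-ratio scaling 2 were lower and 2 higher, with a median of 0.15. The lower ones were cyclin E2, CCNE2, which was at 9.47 ± 0.573 FPKM with IFNγ and at 4.61 ± 0.25 with both (-0.90, SE 0.08, adjusted p = 0.00194), cyclin A2, CCNA2 (-0.56, adjusted p = 0.0055), and the helicase assembly factor DONSON (-0.40, adjusted p = 0.0155; -0.18, adjusted p = 0.122, after median-ratio scaling). CCNE2 and CCNA2 were also lower with SB-3CT alone, 2 of 9 against 6.87% of all genes. CDK2 and CIZ1 were higher there, 2 of 9 against 5.37% of all genes. The rise of CINP with both agents against IFNγ was not called with the length trend removed. With IFNγ against control CINP was called lower, 1 of 9 against 11% of all genes, but not after median-ratio scaling.

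Of 15 genes of the fork, cohesion and S-phase checkpoint, 12 were lower, against 31.5% of all and 42.7% of the expressed genes, with a median of -0.56, and none was higher, at an unadjusted p under 0.05 as well. The checkpoint mediator CLSPN was at 6.62 ± 0.986 FPKM with IFNγ and at 3.07 ± 0.12 with both (-0.90, SE 0.11, adjusted p = 0.00218), followed by the clamp unloader ATAD5 (-0.76, adjusted p = 0.00336) and the helicase BRIP1 (-0.72, adjusted p = 0.00408). After median-ratio scaling 8 of the 15 stayed lower (15.5% of all genes), with a median of -0.38. With SB-3CT alone no gene of this list was called by limma, with 4 higher and 5 lower at an unadjusted p under 0.05. With IFNγ alone 5 of the 15 were higher, against 8.46% of all and 11% of the expressed genes. CHTF18, the clamp loader partner of DSCC1, was 1 of these 5. It was not called after median-ratio scaling, quantile normalization or removal of the length trend.

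Of 15 other histone chaperone and chromatin assembly genes, 12 were lower and none higher, at an unadjusted p under 0.05 as well, with a median of -0.40, against 31.5% of all and 42.7% of the expressed genes lower. After median-ratio scaling 9 were lower (15.5% of all genes) and 1 was higher, with a median of -0.19. DEK, a histone-binding chromatin protein, was at 35.8 ± 3.69 FPKM with IFNγ and at 19.0 ± 1.08 with both (-0.88, SE 0.08, adjusted p = 0.00207). The remodeller subunits BAZ1A (-0.86, adjusted p = 0.00207) and BAZ1B (-0.70, adjusted p = 0.0027) changed by similar amounts. Around DTL, 3 of 8 listed genes were lower, near the shares of 31.5% of all and 42.7% of the expressed genes. The median of the 8, -0.19, lay beside that of the expressed genes, -0.20. The lower ones were the cullin genes CUL4B (-0.78, adjusted p = 0.00247), CUL1 (-0.53, adjusted p = 0.00392) and CUL4A (-0.49, adjusted p = 0.00368). CDKN1A, which encodes p21, was higher, as it was with SB-3CT alone, but not called after quantile normalization. After median-ratio scaling 3 of the 8 were lower and 3 higher, with a median of 0.06.

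Of 13 nucleotide supply genes, 8 were lower, against 31.5% of all and 42.7% of the expressed genes. A single gene of the list was higher (ADSL), against 6.41% of all genes. The median was -0.24, near that of the expressed genes, -0.20. CTPS2, a CTP synthase, was at 3.04 ± 0.199 FPKM with IFNγ and at 2.0 ± 0.212 with both (-0.43, SE 0.09, adjusted p = 0.00901), and DCK, the kinase that salvages deoxycytidine, changed by the same amount (-0.43, SE 0.08, adjusted p = 0.0066). After median-ratio scaling the median of this list was -0.01, with 3 lower and 4 higher, against 15.5% and 16.5% of all genes. CTPS2 was then not called (-0.25, adjusted p = 0.0534), and DCK was near the threshold (-0.20, adjusted p = 0.0483).

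**Figure D4:**
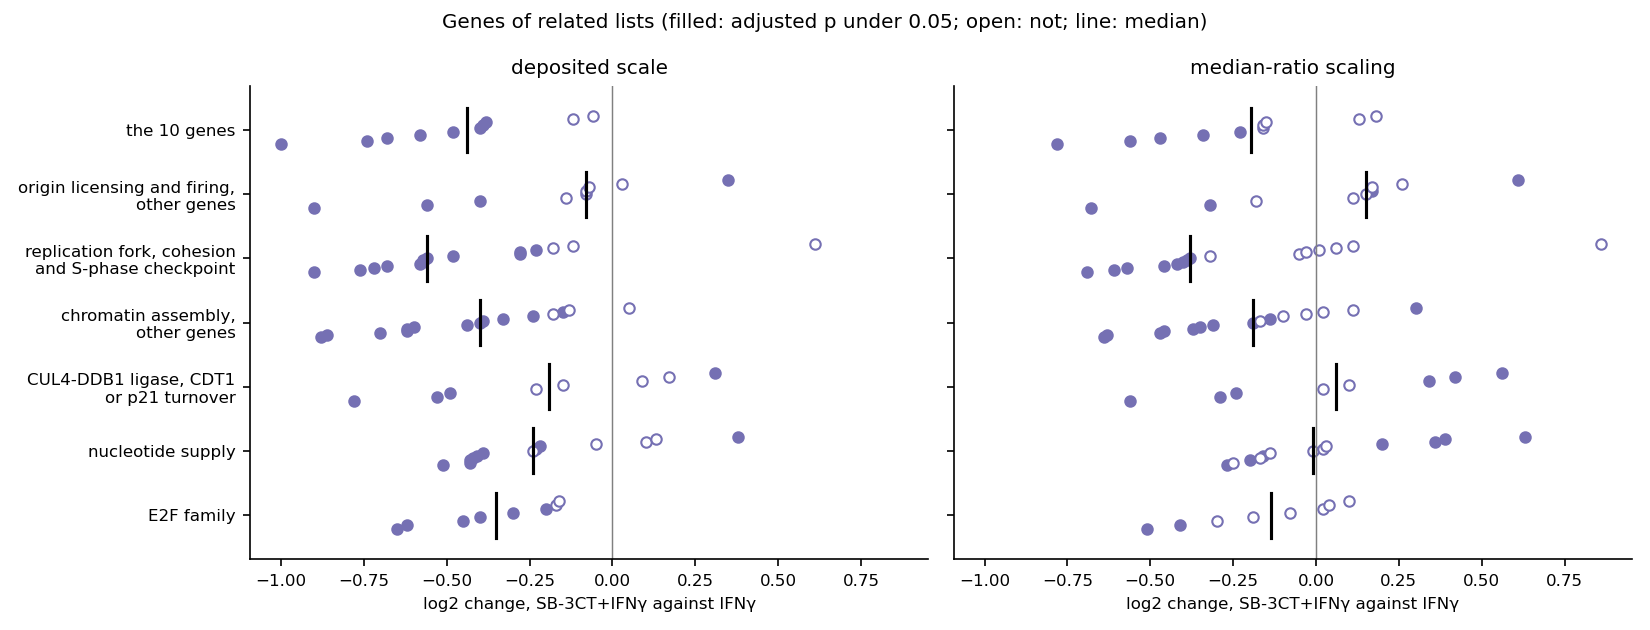
log2 change in SB-3CT+IFNγ against IFNγ (x axis) of the 10 genes and of 6 related lists, on the deposited scale (left) and after median-ratio scaling (right); circles are genes, filled at an adjusted p under 0.05, and vertical lines are medians. The fork and checkpoint list has the lowest median on both scales (-0.56 and -0.38), and the medians of the other origin genes and of the CUL4-DDB1 list pass from below 0 to above 0.

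The E2F genes themselves covered a wide range of levels. E2F4, a repressor bound in resting cells, was the most abundant at 83.4 ± 2.09 FPKM in control, E2F1, an activator, was at 21.1 ± 1.37, and the atypical repressors E2F7 and E2F8 were at 5.14 ± 0.032 and 1.64 ± 0.0935. With IFNγ against control, E2F1, E2F7 and E2F8 were higher, 3 of 8 genes against 8.46% of all genes. With both agents against IFNγ, 6 of 8 were lower, against 31.5% of all and 42.7% of the expressed genes, with a median of -0.35, and 2 of them, E2F7 (-0.62, adjusted p = 0.00288) and E2F8 (-0.65, adjusted p = 0.00414), were still lower after median-ratio scaling.

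E2F1 was at 22.2, 19.6 and 21.6 FPKM in control, at 26.2, 24.9 and 25.6 with SB-3CT, at 26.3, 27.5 and 25.5 with IFNγ and at 23.9, 23.7 and 20.9 with both. It was called higher with SB-3CT alone, as CDT1 was, 1 of 8 E2F genes against 5.37% of all genes. E2F8 was called lower with SB-3CT alone, also 1 of 8, against 6.87% of all genes, but not after quantile normalization. E2F7 was at 7.95, 7.03 and 7.64 with IFNγ and at 4.27, 4.28 and 5.11 with both, and E2F8 at 2.43, 2.14 and 2.08 and at 0.777, 1.28 and 1.12. In E2F7 and E2F8 the samples of these 2 groups did not overlap. With both agents against SB-3CT no E2F gene was called by limma, with 1 lower at an unadjusted p under 0.05.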

How the data were processed

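RNA-seq of 12 A375 samples was deposited as a table of genes by samples. Per the study's methods and the submitters' processing notes, the authors aligned reads to hg19 with HISAT2 2.0.5 and computed FPKM with StringTie 1.3.3. The deposited values are on a log2 scale; they behave as log2(FPKM + 1) (highest value 12.16), which is inferred from the values, and FPKM was recovered from them. Each column was assigned to its sample from the column name, with 0 left unused.

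All 4918 genes were fitted with limma 3.58.1 in R 4.3.3 (lmFit, eBayes with trend, unpaired, only the 3 + 3 samples compared; all 12 for the interaction), after tests on simulated data. With 3 against 3 an exact permutation test cannot go below p = 0.1. Alternatives were adding 0.1 instead of 1, only expressed genes (FPKM averaging 1 or more), median-ratio scaling, quantile normalization, removal of a trend with transcript length (GENCODE release 44), robust eBayes, a replicate block, all groups in a single fit, and each sample left out.

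The members and lists were chosen with earlier results of these data known. Genes named beside the members are, per list, at most 3 with the largest change among those called in SB-3CT+IFNγ against IFNγ that are expressed and do not overlap, the 8 nearest profiles, CXCL10, CD274 and the E2F genes; CINP, ADSL, CDKN1A, CDK2, CIZ1 and CHTF18 were named after their values were seen. One gene under this rule is not reported here.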

Additional observations from a re-analysis of the deposited data

Results flagged for a closer look

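For 7 of the 10 genes the change with SB-3CT under IFNγ differed from the change with SB-3CT without IFNγ, by limma's test of that difference over all 12 samples. The differences were -0.73 for DTL, -0.66 for CDT1, -0.64 for ATAD2, -0.64 for CHAF1A, -0.46 for CHAF1B, -0.45 for CDC6 and -0.40 for CDC45 on the log2 scale. The highest adjusted p among them was 0.031, for ATAD2. CDC6, CDC45, CDT1, CHAF1A and DTL were called in all 12 fits that left out a sample, CHAF1B in 10 and ATAD2 in 7. After median-ratio scaling only CDT1, CHAF1A and DTL kept the call.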

How the results depend on the processing

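For SB-3CT+IFNγ against IFNγ the 8 lower members became 5 with the length trend removed, 5 after median-ratio scaling, 6 after quantile normalization and 3 at a fold change over 1.5, and 6 to 8 with a sample left out. CDC45 but not CDC6 was called with the length trend removed, and CDC6 but not CDC45 after median-ratio scaling. For SB-3CT against control the count of lower members, 0, became 1 with all 4 groups in a single fit, with the length trend removed, after median-ratio scaling and at a pseudocount of 0.1, 2 with robust eBayes, 3 among expressed genes and 0 to 4 with a sample left out (4 without SB-3CT replicate 1); the higher count, 1, became 2 with the length trend removed, among expressed genes and after median-ratio scaling, and 0 at a fold change over 1.5. For IFNγ against control the lower count, 0, became 1 with the length trend removed, among expressed genes, after median-ratio scaling, after quantile normalization and with robust eBayes, and was 0 to 1 with a sample left out. The higher count, 5, became 7 after median-ratio scaling. It became 6 with the length trend removed, among expressed genes, after quantile normalization, with robust eBayes and with all 4 groups in a single fit. It fell to 3 with the replicate block and 0 at a fold change over 1.5, and was 1 to 6 with a sample left out. For SB-3CT+IFNγ against SB-3CT the 4 lower members became 1 with the length trend removed, 0 after median-ratio scaling, 0 after quantile normalization, 2 with the replicate block and 0 at a fold change over 1.5. The 7 interactions became 4 with the length trend removed, 3 after median-ratio scaling, 5 after quantile normalization, 8 among expressed genes and 4 at a fold change over 1.5, and 5 to 8 with a sample left out. The cause of these changes was not tested.

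Whether samples with the same replicate number belong together is not known. Correlations of same-numbered deviations from the group means ran from -0.395 to 0.172, which cannot settle it with 3 samples a group. The replicate block kept 8 lower members in SB-3CT+IFNγ against IFNγ and 7 interactions.

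Changes of sign concerned small changes. In SB-3CT+IFNγ against IFNγ, with the length trend removed, after median-ratio scaling and after quantile normalization, CDT1 gave 0.08, 0.13 and 0.04 and DSCC1 0.06, 0.18 and 0.14, and with a sample left out DSCC1 ranged from -0.15 to 0.01 (0.01 without IFNγ replicate 1). In SB-3CT against control CDC6 gave 0.05 with the length trend removed, 0.02 after median-ratio scaling and -0.08 to 0.03 with a sample left out, and CDC45 gave -0.01 with the length trend removed and 0.00 to 0.02 with a sample left out. In IFNγ against control DBF4 gave 0.04 after median-ratio scaling and -0.05 to 0.07 with a sample left out. In SB-3CT+IFNγ against SB-3CT, after median-ratio scaling, ATAD2 gave 0.01, CDC6 0.02, CDT1 0.09, CHAF1B 0.11 and DSCC1 0.08, CHAF1B gave 0.07 with the length trend removed and 0.08 after quantile normalization, and DSCC1 gave 0.02 after quantile normalization. The interaction of DBF4 was 0.01 after quantile normalization. Of these, only the change of CDC6 against SB-3CT was called on the deposited scale.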

Other observations

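Interferon-response genes did not all move in a single direction when SB-3CT was added to IFNγ. CXCL10 was at 81.7 ± 3.97 FPKM with IFNγ and at 112 ± 13.7 with both agents (SD, n = 3), and was called higher, whereas CD274, which encodes PD-L1, was at 21.7 ± 2.32 and at 14.7 ± 1.37 and was called lower. Of a chosen list of 9 interferon-response genes, 7 were in the table, and these 7 were all higher with IFNγ than in control. With both agents against IFNγ, 5 of the 7 were lower, against 31.5% of all genes. After median-ratio scaling 4 were lower, and with the length trend removed 3, without CD274. On the deposited scale, the group with the lowest mean levels of CDC45 and CDC6 had the highest mean level of CXCL10. After median-ratio scaling the change of CDC6 in that group against SB-3CT was 0.02. A link between these genes was not tested.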
